A study of Mus musculus with 18 samples.

Results

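The circadian clock genes described here are Arntl, Npas2, Clock, Per1, Per2, Per3, Cry1, Nr1d1, Dbp and Hlf. They are the 10 entries, among 19545 in the gene table, whose symbol is one of these names, and each symbol stood on a single entry. Expression was measured by RNA sequencing of kidneys from ICR mice, an outbred stock, at 10 weeks of age. There were 18 libraries in 6 groups of 3: controls, AOS at 10 mg/kg (AOS), STZ (STZ), STZ with AOS at 10 mg/kg (STZ+AOS), and STZ with a transfer labelled as AOS FMT at 10 mg/kg (STZ+AOS-FMT) or as control FMT (STZ+control-FMT), where the name is taken to be the treatment of the donors. STZ usually stands for streptozotocin, which kills pancreatic beta cells and so makes rodents diabetic, and FMT for transfer of faecal microbiota. What AOS stands for is not in the labels. All groups other than control and AOS thus carry STZ. The hour at which the kidneys were taken is not in the labels, nor is it said whether each library came from another mouse, so p-values rest on the spread of these libraries alone, and that spread may be technical. The 10 genes were chosen with results from these libraries known, so that the levels, differences and counts below are a description of these libraries.

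As background, the mammalian clock is a feedback loop of transcription. ARNTL (also called BMAL1) pairs with CLOCK or with its relative NPAS2 and activates genes through E-boxes, among them the Per and Cry genes, whose proteins return to repress the pair, and Nr1d1 and Dbp. NR1D1 (REV-ERB alpha) represses Arntl through elements shared with the ROR activators, and the PAR bZIP factors DBP and HLF act on D-boxes. In kidney, as in other tissues, Arntl and Npas2 peak at about the opposite time of day from Dbp and the other E-box targets. The kidney clock is known for its daily control of sodium and water transport.

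In mm10 with the GENCODE mouse release 21 annotation, Arntl lies on chromosome 7 at 113207465 to 113314126, Npas2 on chromosome 1 at 39193731 to 39363236 and Clock on chromosome 5 at 76209868 to 76304792. Per1 lies on chromosome 11 at 69095217 to 69109960, Per2 on chromosome 1 at 91415982 to 91459324, Per3 on chromosome 4 at 151003652 to 151044665 and Cry1 on chromosome 10 at 85131700 to 85185064. Nr1d1 lies on chromosome 11 at 98767932 to 98775333, Dbp on chromosome 7 at 45705088 to 45710203 and Hlf on chromosome 11 at 90336536 to 90390895. Because members varied together across the libraries, the 3 elements of the loop were looked for around their start sites, on both strands, in the RefSeq windows of GRCm38.p6 that run from 250 bases before to 50 after a start. The table held 13 windows for 9 of the 10 genes, and Per2 had none. The E-box CACGTG was in a window of Per1 and of Cry1, and in 7.15% of all 32851 windows. The D-box, written TTATGTAA or TTACGTAA, was in that of Per3 and in 1.06% of all, and the ROR element TAGGTCA was in a window of Arntl and in 2.61% of all. The windows of Npas2, Clock, Nr1d1, Dbp and Hlf held none of the 3 elements. A match of letters is a description, and none of these sites was measured here. The stretches with a match are shown 5′ to 3′ on the strand of the gene, with the element in capitals: Per1 at chr11:69098743-69098828 (+), Cry1 at chr10:85185069-85185154 (-), Per3 at chr4:151044786-151044900 (-) and Arntl at chr7:113207530-113207558 (+).
Per1: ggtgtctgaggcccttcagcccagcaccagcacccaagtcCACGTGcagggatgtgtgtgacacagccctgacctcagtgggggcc
Cry1: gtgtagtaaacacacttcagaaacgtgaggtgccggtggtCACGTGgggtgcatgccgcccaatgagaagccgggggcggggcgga
Per3: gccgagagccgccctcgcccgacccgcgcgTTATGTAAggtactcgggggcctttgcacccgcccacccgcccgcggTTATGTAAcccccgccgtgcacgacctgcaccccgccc
Arntl: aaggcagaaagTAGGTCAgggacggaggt
The Per1 element stands 166 bases before a start that lies inside the Per1 span, outside its annotated exons. That of Cry1 stands 60 bases before its start, the 2 of Per3 stand 205 and 158 bases before theirs, and that of Arntl is 31 bases after 1 of its starts, within an annotated exon.

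The values are taken to be FPKM, reads or fragments per kilobase of gene, scaled to the reads assigned in each library. No label names the unit. On that reading, levels can be compared between genes. A library had 11407 to 12607 genes at 1 FPKM or more. The depth is unknown for want of read totals. By the steps of low values, the worth of 1 read differed by 1.17 times between the libraries at the ends. That measure used only values close to the smallest of their gene, so it could not show a wide difference in depth. All 8 kidney markers (tubule and glomerulus) were at 1 FPKM or more in every library. Control 3 and STZ 1 stood apart from their groups in Kap, an androgen-responsive gene of the proximal tubule, with 150876, 145522 and 15798 FPKM in control 1 to 3 and 144830, 63552 and 14615 in STZ 1 to 3. In this gene control 3 was near STZ 3, and STZ 1 near controls 1 and 2. Whether the labels of control 3 and STZ 1 were exchanged was not tested, so that every control and STZ value below is that of the libraries as labelled. Markers of other cell types also differed: the summed level of 6 adrenal cortex genes was 54.1 to 1008 FPKM in STZ+AOS and 367.4 in control 3 against at most 26.4 in the others, and 5 spermatid genes summed to 20.3 to 80.2 FPKM in control and STZ against at most 0.59 elsewhere. The part of these in the results was not tested. In bulk kidney RNA, fewer cells of a type and less RNA per cell cannot be told apart.

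Among the activators, Arntl and Npas2 were lowest in the STZ+AOS-FMT kidneys, and Clock was nearly level throughout. In replicates 1, 2 and 3, Arntl was at 12.54, 10.05 and 2.71 FPKM in the control kidneys, 6.75, 4.59 and 8.24 in AOS, 8.06, 4.39 and 5.61 in STZ, 8.60, 3.21 and 12.85 in STZ+AOS, 1.49, 1.82 and 1.39 in STZ+AOS-FMT and 5.93, 3.15 and 3.58 in STZ+control-FMT. The 3 STZ+AOS-FMT libraries were the lowest of all 18, followed by control 3, whereas the other controls were among the highest. Npas2 was at 10.22, 6.71 and 1.60 FPKM in the control kidneys, 5.19, 3.49 and 6.25 in AOS, 6.35, 3.17 and 2.75 in STZ, 7.46, 3.01 and 6.79 in STZ+AOS, 1.04, 1.42 and 0.62 in STZ+AOS-FMT and 3.22, 1.94 and 1.86 in STZ+control-FMT. Its order of group means was the same as that of Arntl: STZ+AOS-FMT, STZ+control-FMT, STZ, AOS, STZ+AOS and control, from 1.03 ± 0.40 to 6.18 ± 4.33 FPKM (SD, n = 3). For Arntl these ends were 1.57 ± 0.23 and 8.43 ± 5.11 FPKM. Clock, which encodes the constant partner, was at 7.43, 7.12 and 5.88 FPKM in the control kidneys, 5.74, 5.69 and 5.51 in AOS, 5.56, 7.21 and 5.96 in STZ, 7.23, 6.01 and 7.70 in STZ+AOS, 5.62, 5.53 and 5.62 in STZ+AOS-FMT and 6.92, 5.51 and 6.25 in STZ+control-FMT. Its highest library was 1.40 times its lowest, against 9.24 times for Arntl and 16.5 times for Npas2.

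**Figure D1:**
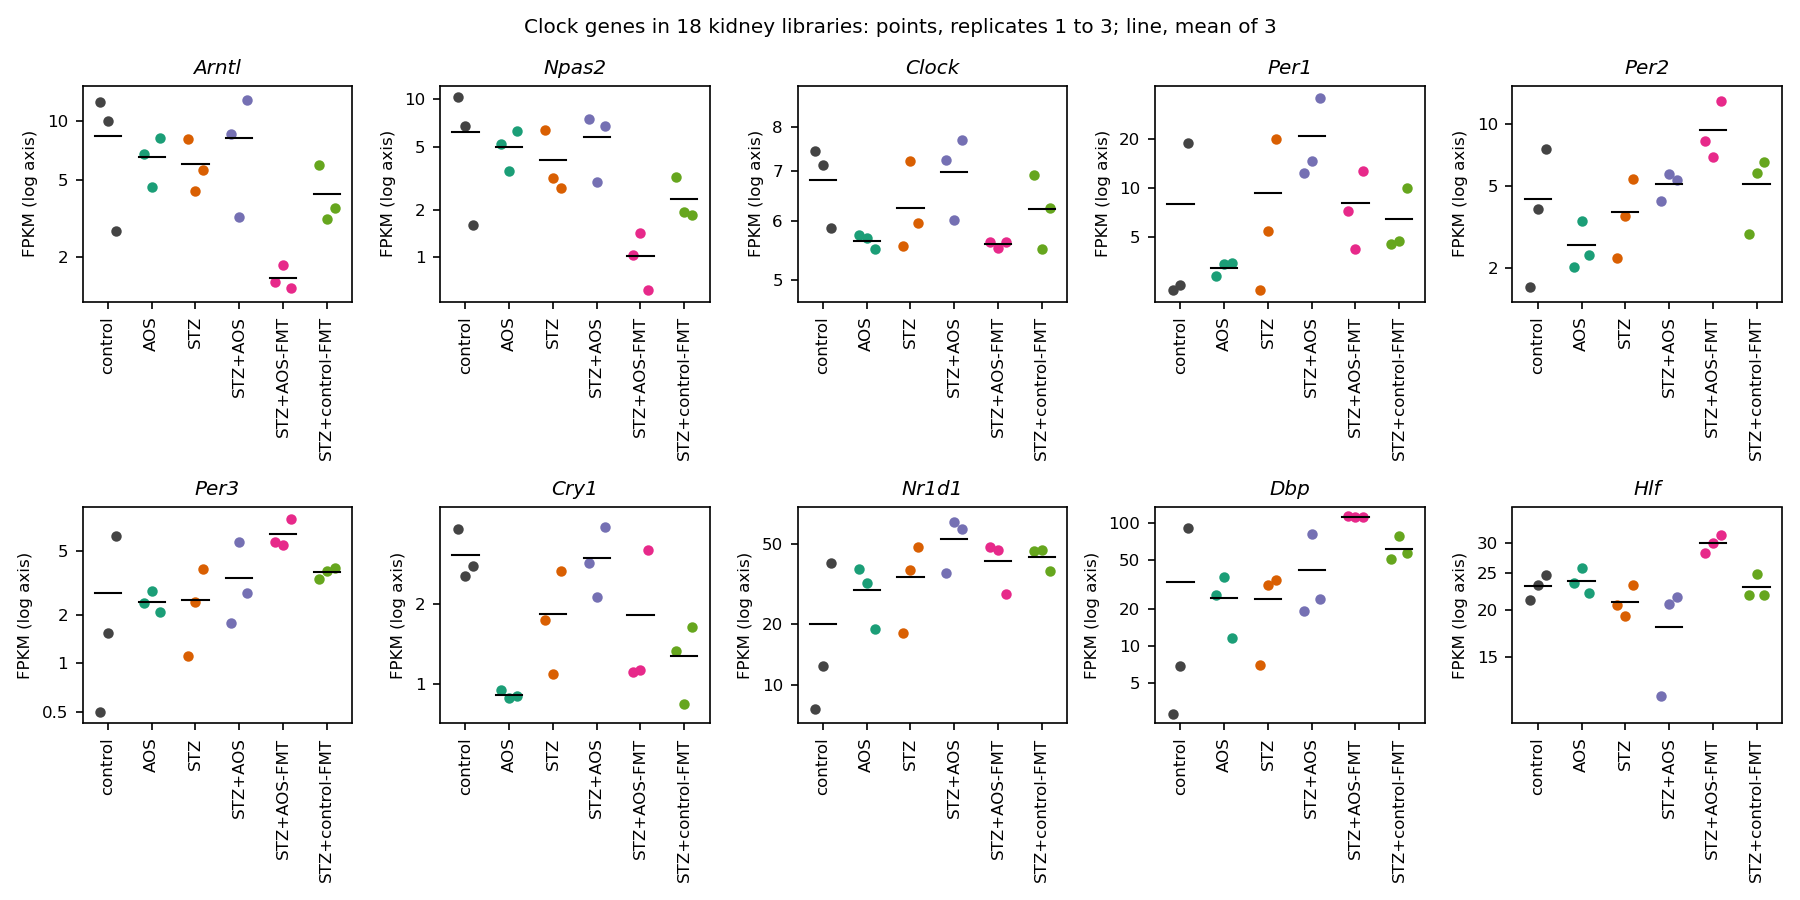
FPKM (log axis, scaled for each gene) of the 10 clock genes in 18 kidney libraries by group. Points are replicates 1 to 3 from left to right and lines are means of 3: the STZ+AOS-FMT points are the lowest of all for Arntl (1.39 to 1.82) and Npas2 and the highest of all for Dbp (111.91 to 113.70) and Hlf.

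The Period genes, repressors of the ARNTL pair, were highest in different groups. Per1, which besides the E-box input responds to glucocorticoids and cAMP, was at 2.39, 2.54 and 19.01 FPKM in the control kidneys, 2.88, 3.43 and 3.47 in AOS, 2.38, 5.46 and 20.01 in STZ, 12.40, 14.75 and 35.73 in STZ+AOS, 7.27, 4.22 and 12.76 in STZ+AOS-FMT and 4.55, 4.75 and 10.08 in STZ+control-FMT. Control 3 and STZ 3 stood well above the rest of their groups, and the STZ+AOS libraries were all at 12.40 FPKM or more. Per2 was at 1.62, 3.86 and 7.53 FPKM in the control kidneys, 2.03, 3.38 and 2.32 in AOS, 2.24, 3.57 and 5.43 in STZ, 4.22, 5.71 and 5.37 in STZ+AOS, 8.25, 6.95 and 12.96 in STZ+AOS-FMT and 2.92, 5.78 and 6.57 in STZ+control-FMT. Per3 was at 0.50, 1.54 and 6.17 FPKM in the control kidneys, 2.37, 2.82 and 2.08 in AOS, 1.11, 2.42 and 3.85 in STZ, 1.78, 5.66 and 2.72 in STZ+AOS, 5.67, 5.46 and 7.90 in STZ+AOS-FMT and 3.37, 3.78 and 3.92 in STZ+control-FMT. Both were highest on average in STZ+AOS-FMT, at 9.39 ± 3.16 FPKM for Per2 and 6.34 ± 1.35 for Per3, and lowest in AOS, at 2.58 ± 0.71 and 2.42 ± 0.37 (SD, n = 3). Control 3, at 7.53 FPKM of Per2 and 6.17 of Per3, lay within the range of STZ+AOS-FMT. Control 1 had the lowest value of all libraries for both. Cry1, the cryptochrome of the set, was at 3.84, 2.55 and 2.79 FPKM in the control kidneys, 0.95, 0.89 and 0.90 in AOS, 1.75, 1.09 and 2.68 in STZ, 2.87, 2.14 and 3.93 in STZ+AOS, 1.11, 1.13 and 3.21 in STZ+AOS-FMT and 1.34, 0.84 and 1.65 in STZ+control-FMT. The AOS libraries lay together at 0.913 ± 0.032 FPKM, below all controls and all STZ libraries, and 1 library of STZ+control-FMT was lower still.

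Outside the Period genes, Nr1d1 and Dbp were lowest in 2 of the 3 controls, and Hlf, like Dbp, was highest in STZ+AOS-FMT. Nr1d1, the repressor of Arntl, was at 7.57, 12.34 and 40.16 FPKM in the control kidneys, 37.68, 31.89 and 18.97 in AOS, 18.03, 37.20 and 48.26 in STZ, 35.74, 64.55 and 59.49 in STZ+AOS, 48.33, 46.80 and 28.18 in STZ+AOS-FMT and 46.01, 47.02 and 36.86 in STZ+control-FMT. Controls 1 and 2 were the lowest of all 18 libraries, and the order of group means ran from control (20.02 ± 17.6 FPKM) through AOS, STZ, STZ+AOS-FMT and STZ+control-FMT to STZ+AOS (53.3 ± 15.4). Dbp was at 2.76, 6.90 and 90.60 FPKM in the control kidneys, 25.98, 36.46 and 11.51 in AOS, 6.99, 31.44 and 34.08 in STZ, 19.39, 82.13 and 23.91 in STZ+AOS, 113.70, 111.91 and 112.77 in STZ+AOS-FMT and 51.10, 78.17 and 56.95 in STZ+control-FMT. It spanned 41.2 times from control 1 to STZ+AOS-FMT 1, the widest range of the 10 genes, and yet the 3 STZ+AOS-FMT libraries were within 1.02 times of each other. Hlf, which encodes another PAR bZIP factor, was at 21.23, 23.17 and 24.63 FPKM in the control kidneys, 23.45, 25.74 and 22.05 in AOS, 20.53, 19.22 and 23.16 in STZ, 11.85, 20.68 and 21.61 in STZ+AOS, 28.09, 29.98 and 31.43 in STZ+AOS-FMT and 21.88, 24.83 and 21.89 in STZ+control-FMT. STZ+AOS-FMT was the highest group, at 29.8 ± 1.67 FPKM, and STZ+AOS 1 the lowest library. Some of these genes share a span with another gene, and whether the counting used strand is not given in the sources used here. Nr1d1 overlaps Thra by 1075 bases and Dbp overlaps Sphk2 by 737 bases, in both cases on opposite strands. Per3 lies within the span of Camta1, on the same strand. Thra (17.9 to 27.8 FPKM) and Sphk2 (14.7 to 23.3 FPKM) varied far less than Nr1d1 and Dbp. Sphk2 was lowest in STZ+AOS-FMT, at 17.77, 16.86 and 14.67 FPKM, where Dbp was highest. Camta1 was at 6.11 to 12.08 FPKM, where Per3 was at 0.50 to 7.90.

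The balance between the 2 arms of the loop was followed by the ratio of Dbp to Arntl in each library. It was 0.22, 0.687 and 33.4 in the controls, 3.85, 7.94 and 1.40 in AOS, and 0.867, 7.16 and 6.07 in STZ. In STZ+AOS it was 2.25, 25.6 and 1.86, in STZ+control-FMT 8.62, 24.8 and 15.9, and in STZ+AOS-FMT 76.3, 61.5 and 81.1. The 3 STZ+AOS-FMT libraries thus had the highest ratios of all, next came control 3, and controls 1 and 2 and STZ 1 had the lowest. Over the 18 libraries, Dbp and Arntl had a Pearson r of -0.889 and a Spearman rho of -0.938 on the log2(FPKM + 1) scale. Without the 2 libraries farthest from the median of Arntl r was -0.873, and for deviations from the group means it was -0.899. Without control 3 and STZ 1, r was -0.890.

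**Figure D2:**
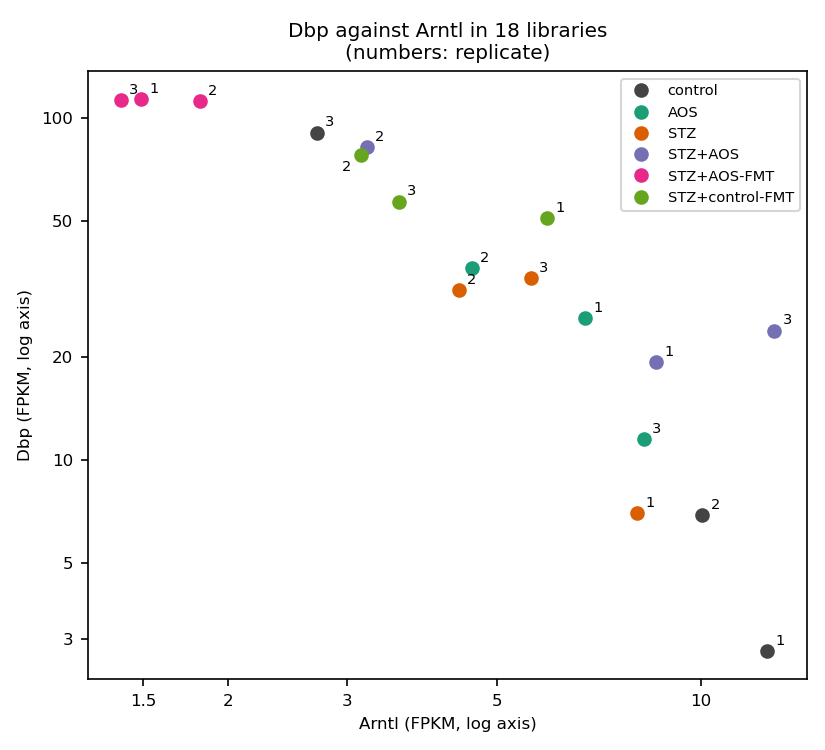
Dbp against Arntl (FPKM, both axes log) in 18 libraries, coloured by group and numbered by replicate. The STZ+AOS-FMT points lie together at the upper left, control 3 lies next to them, and controls 1 and 2 lie at the lower right.

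All 45 pairs of clock genes were compared in the same way, as a description with no p, since the genes were chosen with these values known and share libraries and scaling. Arntl and Npas2 had the highest r, 0.962 (rho 0.963, r 0.928 within groups). Per3 and Dbp came next, at 0.957 (rho 0.959, r 0.945 within groups). Per3 and Npas2 were opposed at -0.914 (rho -0.915, r -0.961 within groups). Nr1d1 and Dbp had r 0.800 and rho 0.593, and r was 0.597 without the 2 libraries farthest from the median of Nr1d1 and 0.903 within groups. Of the other genes r with Dbp was 0.803 for Per2, 0.454 for Per1, -0.275 for Cry1, -0.464 for Clock and 0.465 for Hlf. With Arntl the order was another one: r was 0.630 for Clock, -0.594 for Hlf, -0.490 for Nr1d1, 0.332 for Cry1 and -0.178 for Per1. Of 8321 other genes with a mean of at least 5 FPKM, 0 had a higher r with Arntl than Npas2 had, 0 had a higher r with Dbp than Per3 had, and 1, Slc5a6, had a lower r with Arntl than Dbp had.

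**Figure D3:**
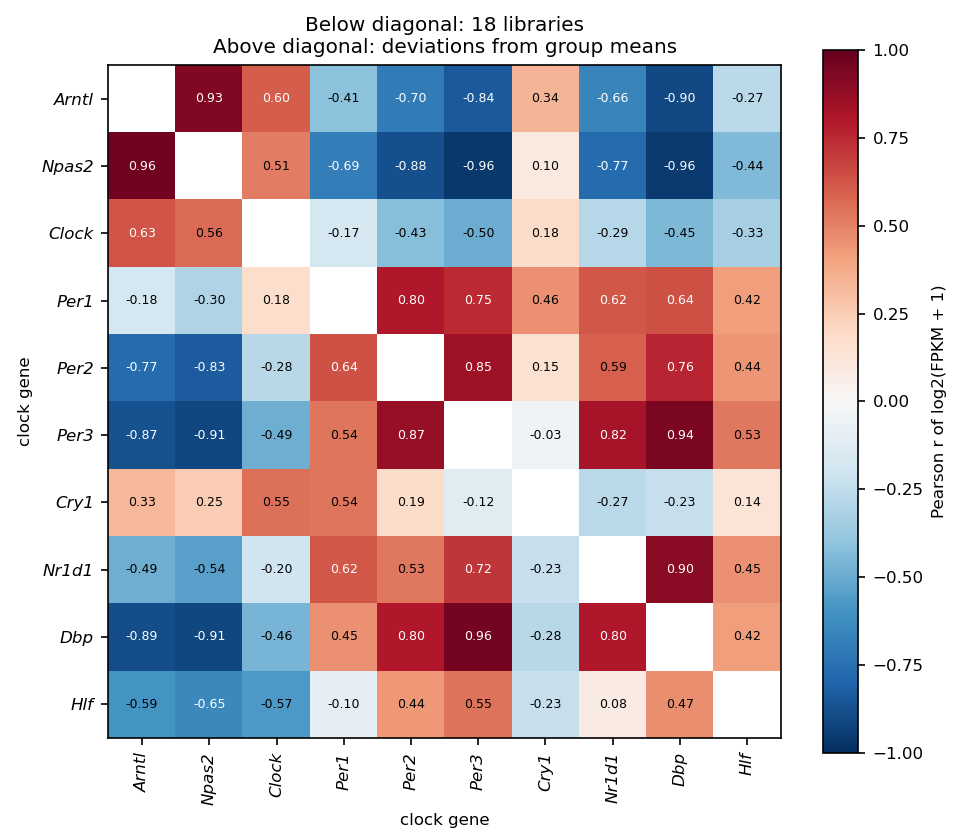
Pearson r of log2(FPKM + 1) between the 10 clock genes, over 18 libraries below the diagonal and for deviations from group means above it (red positive, blue negative). Arntl and Npas2 go together at 0.96, Per3 and Dbp at 0.96, and the pairs across (Npas2 and Dbp at -0.91) are opposed.

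Likeness to Arntl and to Dbp was also read for genes outside the set, by Pearson r over the 18 libraries. The 5 closest to Arntl were Wdtc1 (0.859), Sphk2 (0.839), Cluh (0.834), Sav1 (0.834) and Nfil3 (0.831), and the 5 most opposed were Slc5a6 (-0.928), Tln2 (-0.888), Dync2li1 (-0.871), Triap1 (-0.866) and Atp6v1d (-0.839). The 5 closest to Dbp were Nr1d2 (0.948), Slc5a6 (0.923), Cpeb3 (0.914), Ciart (0.907) and Ell3 (0.891), and the most opposed were Ppard (-0.883), Stx18 (-0.842), Rbm38 (-0.834), Plod2 (-0.832) and Bod1 (-0.832). Sphk2 is the gene that overlaps Dbp on the opposite strand. Nfil3 is the repressor that competes with the PAR bZIP factors at D-boxes, Nr1d2 is the other REV-ERB, and Ciart is a repressor of the ARNTL pair. Ciart was at 0.33, 0.44 and 18.01 FPKM in the control kidneys, 1.84, 2.12 and 0.81 in AOS, 0.81, 4.53 and 8.54 in STZ, 1.39, 13.75 and 9.92 in STZ+AOS, 14.18, 16.94 and 15.23 in STZ+AOS-FMT and 7.71, 6.41 and 7.16 in STZ+control-FMT. Its highest libraries were control 3 and STZ+AOS-FMT 2, and its lowest were controls 1 and 2. Slc5a6, a vitamin transporter, ranged from 5.89 FPKM in control 1 to 11.50 in STZ+AOS-FMT 2.

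The clock genes varied between replicates more than most genes did. The pooled SD within groups, on the log2(FPKM + 1) scale, was 1.24 for Dbp, and 99.6% of the 12682 genes tested had a smaller SD. It was 0.944 for Per1 (99.0% smaller), 0.650 for Nr1d1 (96.8%), 0.610 for Arntl (96.2%), 0.604 for Per3 (96.0%), 0.596 for Npas2 (95.8%), 0.503 for Per2 (93.6%) and 0.348 for Cry1 (83.6%). Hlf, at 0.209 (56.6%), and Clock, at 0.129 (22.3%), were ordinary in this respect. By group, the median SD of the 10 was 1.05 in control, 0.508 in STZ and 0.522 in STZ+AOS, against 0.216 in AOS, 0.273 in STZ+AOS-FMT and 0.290 in STZ+control-FMT. Over all genes these medians were 0.218, 0.205, 0.207, 0.0920, 0.113 and 0.106, so the groups with the wider clock spread were also those with the wider spread at large. Within the controls the highest library exceeded the lowest 32.8 times for Dbp, 12.3 times for Per3, 7.95 times for Per1, 6.39 times for Npas2 and 5.31 times for Nr1d1. In each of these 5 genes the ends of the range were control 1 and control 3. The share of variance that lay between groups had a median of 53.4% for the 10 genes and 45.8% for all.

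**Figure D4:**
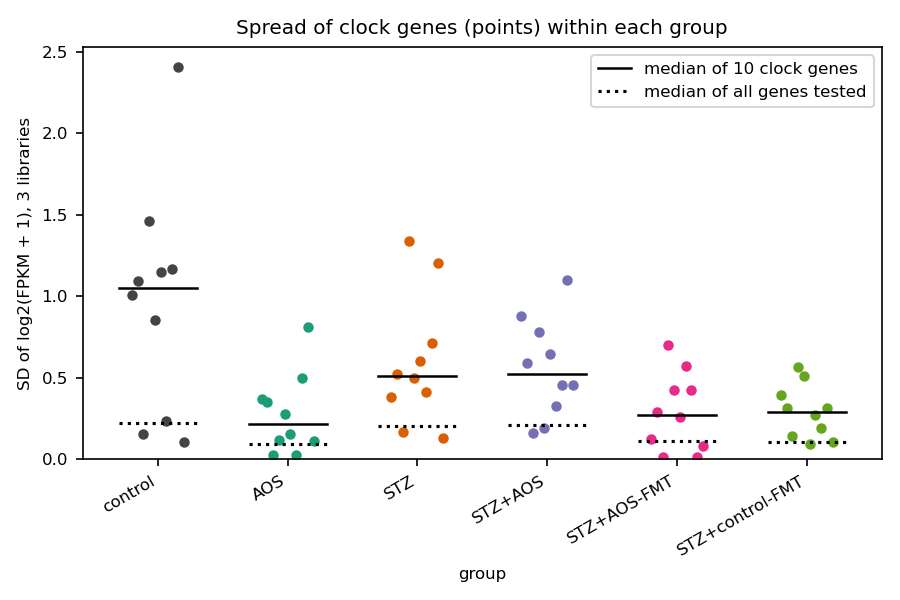
SD of log2(FPKM + 1) over the 3 libraries of each group for each of the 10 clock genes (points), with their median (solid) and the median of all 12682 genes tested (dotted). The control group has the widest spread, with a median of 1.05 and Dbp at 2.41.

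The transfer groups were compared with STZ and with each other. Against STZ, the transfer itself and the donors' treatment enter together. Only the comparison between the transfers asks whether the donors' treatment showed in the recipients' kidneys. With the hour of collection not in the labels, a difference in hour between groups cannot be told apart from treatment. In limma (log2 of FPKM + 1, genes at 1 FPKM or more in 3 or more libraries, Benjamini-Hochberg over 12682 genes, threshold 0.05) 0 of the 10 clock genes passed for STZ+AOS-FMT against STZ, where 0.11% of all genes did. At an unadjusted p under 0.05, 6 were past it, where 3.78% of all genes were. In these 6 the groups did not overlap (8.4% of all genes): Arntl and Npas2 were below every STZ library, and Per2, Per3, Dbp and Hlf above every STZ library. The log2 difference was -1.42 ± 0.45 (SE) for Arntl (limma adjusted p = 0.876) and 0.49 ± 0.16 for Hlf (adjusted p = 0.948). It was -1.28 ± 0.44 for Npas2, 1.14 ± 0.38 for Per2, 1.15 ± 0.45 for Per3 and 2.45 ± 0.91 for Dbp. Without the 3 libraries with Cyp11b1, an adrenal cortex gene, above 100 FPKM, none of which is in either group but which enter the shared spread (a choice made after seeing the data), Arntl passed (adjusted p = 0.0451, 0.153% of all genes). The adrenal cortex sums were 1.93 to 4.06 FPKM in STZ+AOS-FMT and 2.44 to 26.4 in STZ.

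STZ+control-FMT against STZ shares the STZ libraries with that comparison. None of the 10 genes passed in limma (0.103% of all genes), 0 were under an unadjusted p of 0.05 (2.22%), and Dbp alone did not overlap (6.42%). Dbp was higher in STZ+control-FMT by 1.57 ± 0.91 on the log2 scale (adjusted p = 1.00), and Npas2 differed by -0.57 ± 0.44 (adjusted p = 1.00). For STZ+AOS-FMT these values were 2.45 and -1.28. Between the transfers, STZ+AOS-FMT against STZ+control-FMT, 0 of the 10 and 0% of all genes passed, and 2 of the 10 were under an unadjusted p of 0.05 (1.65% of all genes), namely Hlf and Arntl. Arntl and Npas2 were again below, and Per2, Per3, Dbp and Hlf above, every library of the other group, 6 genes without overlap where 11.2% of all genes had none. The log2 difference was 0.37 ± 0.16 for Hlf and -0.99 ± 0.45 for Arntl (adjusted p = 1.00 for each). The summed level of 6 adipocyte genes was 49.4 to 408 FPKM in STZ+AOS-FMT and 286 to 697 in STZ+control-FMT, and its part was not tested.

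**Figure D5:**
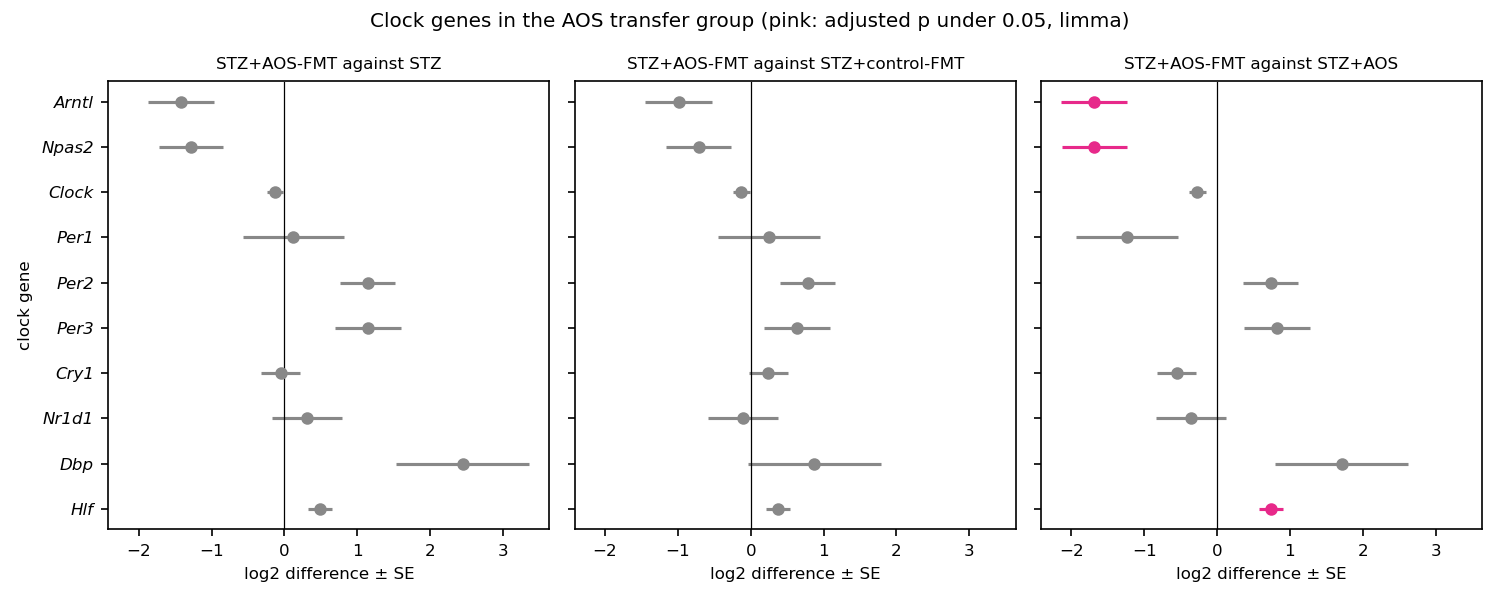
Log2 difference ± SE of the 10 clock genes in STZ+AOS-FMT against STZ, STZ+control-FMT and STZ+AOS (limma on log2(FPKM + 1), n = 3 a group). Arntl and Npas2 are below 0 and Per2, Per3, Dbp and Hlf above 0 in all 3 panels, and the 3 pink genes of the right panel have an adjusted p under 0.05.

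STZ against control asks what STZ treatment changed, and any diabetes it brought cannot be told apart from the toxin itself. None of the 10 genes passed in limma, nor did any gene of the table (0%), and 0 of the 10 were under an unadjusted p of 0.05 (1.27% of all genes) or without overlap (3.23%). Nr1d1 differed by 0.98 ± 0.48 and Cry1 by -0.54 ± 0.27 on the log2 scale (adjusted p = 1.00 for each). Control 3 and STZ 1 weigh on this: control 3 had 90.60 FPKM of Dbp where STZ 1 had 6.99. With both libraries removed, which was decided after seeing the data and takes out the control highest in Dbp and the STZ library lowest in it, 3 of the 10 passed (8.82% of all genes). These were Nr1d1, higher by 2.02 ± 0.36 (adjusted p = 0.00689), Dbp, higher by 2.63 ± 0.61 (adjusted p = 0.0237), and Npas2, at -1.23 ± 0.35 (adjusted p = 0.0448). In AOS against control, which asks the same of AOS without STZ, 0 of the 10 passed (0.071% of all genes), and 1, Cry1, was under an unadjusted p of 0.05 (4.11%). Cry1 and Clock were lower in every AOS library than in every control (13.1% of all genes without overlap), by -1.07 ± 0.27 (adjusted p = 0.582) and -0.23 ± 0.11 (adjusted p = 0.817). For Clock the nearest libraries were AOS 1 at 5.74 FPKM and control 3 at 5.88. The median of all genes was -0.095 in this comparison, and 0.013 with quantile normalization and 0.010 with median-of-ratios rescaling. The 5 spermatid genes summed to 0 FPKM in every AOS library against 28.9 to 40.7 in the controls, and their part was not tested.

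In STZ+AOS against STZ, the direct treatment, 9 of the 10 genes were higher, with a median log2 difference of 0.40, which was 0.098 with quantile normalization and 0.22 with median-of-ratios rescaling. The median of all genes was 0.19 in this comparison and moved to -0.02 and -0.01 in the same order, where 7 and 8 of the 10 were higher and Clock turned from 0.14 to -0.15 and -0.06. None of the 10 passed in limma (4.53% of all genes), 0 were under an unadjusted p of 0.05 (33.1%) and 0 lacked overlap (24.3%). Per1 differed by 1.36 ± 0.70 (adjusted p = 0.183) and Cry1 by 0.50 ± 0.27 (adjusted p = 0.197). Without STZ 3, which had 20.01 FPKM of Per1, Per1 passed at 2.08 (adjusted p = 0.0397), as did 26.5% of all genes. For the interaction, the difference AOS made with STZ less the one it made without STZ, 0 of the 10 and 0% of all genes passed, while 2 of the 10 were under an unadjusted p of 0.05 (33.4%). These were Cry1, at 1.57 ± 0.38 (adjusted p = 0.0771), and Clock, at 0.37 ± 0.16 (adjusted p = 0.131). The sign for Clock was reversed under quantile normalization (-0.075, adjusted p = 0.858), where the median of all genes moved from 0.29 to -0.03. Cry1 passed without STZ 3 (adjusted p = 0.0249, 24.1% of all genes) or without STZ+AOS 2 (adjusted p = 0.0316, 6.31%). A test of any difference among the 6 groups called 0 of the 10 (0.647% of all genes) and had 7 under an unadjusted p of 0.05 (31.1%), with the smallest adjusted p for Cry1 (0.0831) and Hlf (0.0970). Without control 3 this test called 9 of the 10, where it called 28.6% of all genes, and without STZ 3 it called 1, where it called 11.2%.

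Of the remaining 9 pairs of groups, 2 held calls among the clock genes, and both contain STZ+AOS. In STZ+AOS against AOS, 3 of the 10 passed, where 46.5% of all genes did, 4 were under an unadjusted p of 0.05 (56.6%) and 5 had no overlap (59.4%). Cry1 was higher by 1.03 ± 0.27 (limma adjusted p = 0.0103) and Per1 by 2.22 ± 0.70 (adjusted p = 0.0211), and Hlf was lower, at -0.42 ± 0.16 (adjusted p = 0.0455). Without AOS 1, AOS 2 or AOS 3 a single one of these, Cry1, passed each time (34.1%, 28.7% and 27.7% of all genes). Hlf was lost without STZ+AOS 1 (27.9%) and Per1 without STZ+AOS 3 (45.4%). Without STZ+AOS 2, 4 of the 10 clock genes passed (40.4%). In STZ+AOS-FMT against STZ+AOS, 3 of the 10 passed, where 15.1% of all genes did, 4 were under an unadjusted p of 0.05 (36.2%) and 6 had no overlap (42.7%). Hlf was higher by 0.74 ± 0.16 (adjusted p = 0.0184), Npas2 lower at -1.68 ± 0.44 (adjusted p = 0.0296) and Arntl lower at -1.69 ± 0.45 (adjusted p = 0.0311). Without STZ+AOS-FMT 2 (0.331% of all genes) or 3 none of these passed. Without STZ+AOS 1 (0.994%), STZ+AOS 3 (10.5%) or STZ+AOS-FMT 1 (4.93%) a single one did.

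The medians of all genes were 0.29 and -0.17 in these pairs. They moved to -0.03 and 0.03 with quantile normalization and to -0.01 and 0.01 with median-of-ratios rescaling, and the named genes kept their signs, although Arntl and Npas2 no longer passed under either. Cry1 in STZ+AOS against AOS passed under the rescaling but not with quantile normalization, where it differed by 0.55 (adjusted p = 0.151). A fit without the libraries with Cyp11b1 above 100 FPKM (control 3, STZ+AOS 1 and STZ+AOS 3) was decided after seeing the data. It leaves 1 STZ+AOS library, so whether the calls hold cannot be judged from it. Arntl then differed by -0.72 between STZ+AOS-FMT and STZ+AOS, and Per1 by 1.89 and Cry1 by 0.71 between STZ+AOS and AOS. The adrenal cortex genes, all 6 at 1 FPKM or more in every STZ+AOS library, summed to 2.56 to 4.82 FPKM in AOS and 1.93 to 4.06 in STZ+AOS-FMT, and the 5 chromaffin cell genes to 7.84 to 167 FPKM in STZ+AOS against at most 0.94 in these groups. The 5 glucocorticoid-responsive genes, among them Sgk1, summed to 158 to 336 FPKM in STZ+AOS and 90.7 to 93.8 in AOS. In STZ+AOS 1 and 2, Sgk1 was at 75.52 and 63.81 FPKM against 13.97 to 14.75 in AOS. Tsc22d3 and Zbtb16 were also above AOS there. Fkbp5 (28.56 and 23.34 against 22.37 to 23.76) and Klf9 (39.79 and 47.58 against 37.99 to 41.09) were nearer to AOS. STZ+AOS 3 was high in both, at 93.01 and 88.38. The part of these marker genes in these calls was not tested. Per1 followed several of these measures over the 18 libraries, with r 0.936 for Sgk1 (rho 0.911), 0.844 for Cdkn1a, 0.753 for Cyp11b1 and -0.778 for Kap. With Fkbp5, another of the glucocorticoid-responsive genes, Per1 had r 0.521 and a lower rho of 0.224. Arntl had r 0.154 with Kap and 0.223 with Cyp11b1. Between these, Cry1 had r 0.541 with Cyp11b1 (rho 0.309) and 0.532 with Sgk1 (rho 0.604), and Hlf -0.554 with Cyp11b1 (rho -0.329). In the other 7 pairs 0 of the 10 passed. The shares of all genes that passed were 7.06% for STZ+AOS against control, 0.11% for STZ+AOS-FMT against control, 0.071% for STZ+control-FMT against control, 0.103% for STZ against AOS, 0.00789% for STZ+AOS-FMT against AOS, 0% for STZ+control-FMT against AOS and 4.47% for STZ+control-FMT against STZ+AOS. At an unadjusted p under 0.05 the counts of clock genes were 3, 8, 3, 0, 5, 0 and 3 in the same order, against 35.7%, 5.97%, 4.69%, 6.9%, 10.1%, 11.4% and 31.8% of all genes. Without control 3, however, 4 passed for STZ+AOS against control (43.3% of all genes) and 3 for STZ+AOS-FMT against control (0.191%), Npas2, Arntl and Dbp. No neighbouring pair in the order of a gene's group means passed, for any of the 10 genes.

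The other genes of the loop were read from a list of 16, of which 15 were tested and Rorb was too low. In STZ against control, AOS against control, the comparisons of the transfer groups with STZ and with each other, and the interaction, 0 of the 15 passed. In STZ+AOS against STZ, 1 of the 15 passed (4.53% of all genes): Rora, the ROR activator of Arntl, was higher by 0.55 ± 0.13 (limma adjusted p = 0.0467), and by 0.28 with quantile normalization (adjusted p = 0.235). Rora was at 5.87, 5.28 and 6.21 FPKM in the control kidneys, 5.23, 5.76 and 5.86 in AOS, 4.89, 5.11 and 6.26 in STZ, 8.48, 6.52 and 10.43 in STZ+AOS, 5.59, 5.52 and 6.81 in STZ+AOS-FMT and 4.85, 5.02 and 5.07 in STZ+control-FMT. In STZ+AOS against AOS 6 of the 15 passed, no more than the background of 46.5% of all genes. Of these, 5 were higher and 1 lower: Rora, Bhlhe41, Timeless and the casein kinases Csnk1d and Csnk1e, which phosphorylate the Period proteins, were higher, and Fbxl21 was lower. Csnk1e was at 3.88, 4.11 and 9.30 FPKM in the control kidneys, 4.92, 3.66 and 3.51 in AOS, 3.71, 5.01 and 9.11 in STZ, 15.68, 9.56 and 11.03 in STZ+AOS, 5.45, 4.49 and 6.25 in STZ+AOS-FMT and 5.72, 5.74 and 6.17 in STZ+control-FMT. It differed by 1.36 ± 0.29 (adjusted p = 0.00659), and Csnk1d by 0.37 ± 0.09 (adjusted p = 0.00893), which was 0.03 after median-of-ratios rescaling (adjusted p = 0.801). The 3 STZ+AOS libraries were the highest of all for Csnk1e. Bhlhe41, a repressor at E-boxes, differed by 1.05 ± 0.40, and Fbxl21, a cryptochrome ligase, by -0.66 ± 0.24. In STZ+AOS-FMT against STZ+AOS, 4 of the 15 passed (15.1% of all genes) and were lower: Rora, Csnk1d, Csnk1e and Nfil3, the last at -1.89 ± 0.56 (adjusted p = 0.0404). Nfil3 was at 10.48, 9.07 and 3.04 FPKM in the control kidneys, 4.73, 3.50 and 6.84 in AOS, 7.27, 4.72 and 6.07 in STZ, 10.52, 3.72 and 37.44 in STZ+AOS, 2.18, 1.73 and 3.77 in STZ+AOS-FMT and 4.86, 4.36 and 5.88 in STZ+control-FMT. STZ+AOS 3 was far above the other libraries of its group. Csnk1d and Csnk1e were also higher in STZ+AOS than in control, and Rora and Csnk1d lower in STZ+control-FMT than in STZ+AOS (2 of the 15 in each, against 7.06% and 4.47% of all genes). Without the libraries with Cyp11b1 above 100 FPKM, 1 STZ+AOS library is left, so whether the calls of this list hold cannot be judged. Csnk1e then differed by 1.08 between STZ+AOS and AOS, whereas Rora differed by 0.19.

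Of 10 kidney genes described as outputs of the clock, all were tested and 0 passed in the main comparisons (STZ or AOS against control, the treatments against STZ, the transfers against each other, the interaction). In STZ+AOS against AOS 4 of the 10 passed, again no more than the 46.5% of all genes, and all 4 were higher: Sgk1, the aldosterone-induced kinase (2.27 ± 0.51, limma adjusted p = 0.00738), Aqp2, the water channel of the collecting duct (1.98 ± 0.56, adjusted p = 0.0143), Edn1, which encodes endothelin (1.56 ± 0.39, adjusted p = 0.00933), and Scnn1a, a sodium channel subunit (0.96 ± 0.30, adjusted p = 0.0195). Edn1 was lower in STZ+AOS-FMT than in STZ+AOS, at -1.37 ± 0.39 (adjusted p = 0.0364). Sgk1 was at 15.01, 20.83 and 63.36 FPKM in the control kidneys, 14.75, 13.97 and 14.00 in AOS, 15.14, 37.65 and 82.51 in STZ, 75.52, 63.81 and 79.17 in STZ+AOS, 36.40, 25.27 and 43.71 in STZ+AOS-FMT and 29.51, 23.16 and 42.91 in STZ+control-FMT. Control 3 and STZ 3, the libraries high in Per1, were close to the STZ+AOS libraries. Leaving out the libraries with Cyp11b1 above 100 FPKM leaves 1 STZ+AOS library, so whether these 5 calls hold cannot be judged. The differences from AOS were then 2.09 for Sgk1, 1.95 for Aqp2, 0.79 for Scnn1a and 0.90 for Edn1. Edn1 differed by -0.70 between STZ+AOS-FMT and STZ+AOS.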

How the data were processed

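The data are 1 deposited table with the gene values of 18 kidney RNA-seq libraries in 6 groups of 3. Per the labels' protocols, the kidneys were snap frozen, Trizol and a spin column kit were used for RNA, and libraries followed standard Illumina methods. Per the submitters' processing notes, Bowtie 0.12.2 and mm10 were used; the counting tool and its strand setting were not given in the sources used here. Values as deposited are taken to be the authors' FPKM, since the sum of value times gene length had a coefficient of variation of 0.941% across libraries and the plain sum one of 5.47%. With no read totals, no counting interval is given. Of 19542 symbols, 18990 were matched to GENCODE mouse release 21.

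The members and gene lists were chosen with earlier results of these data known. The fit used the 12682 genes at 1 FPKM or more in 3 or more libraries, including all 10 clock genes. Log2(FPKM + 1) values, which understate differences of genes near 0, were fitted with limma 3.58.1 (R 4.3.3, trend and robust), with 1 mean for each group and a spread shared by all 18 libraries. P-values were adjusted by Benjamini-Hochberg over all genes, with a threshold of 0.05. The smallest p of an exact permutation test with 3 a group is 0.1. All 10 genes are given in every library; log2 differences with an adjusted p are given for those past the threshold in a comparison, or else for the 2 with the smallest p. Genes of the other lists are named where they passed, up to 6 a list, and likeness is given as the 5 highest and 5 lowest r among genes with a mean of at least 5 FPKM. Alternatives were other scalings, filters, pseudocounts and limma settings, a fit of only the groups compared, a replicate block and each library left out. The fit was tested on simulated data.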

Additional observations from a re-analysis of the deposited data

How the results depend on the processing

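The 10 clock genes were refitted under each alternative, and counts are of those past an adjusted p of 0.05 in limma. For any difference among the 6 groups the count was 0, and 10 with a weight for each library (48.6% of all genes). It was 2 with the replicate block (4.32%) and 0 to 9 with each library left out (28.6% at 9, without control 3). With library weights it was 5 for STZ+AOS, 8 for STZ+AOS-FMT and 6 for STZ+control-FMT against control, each at 0 before, where 49.6%, 13.7% and 12.5% of all genes passed. It was 5, 6 and 2 for the same groups against AOS (3, 0 and 0 before), where 59%, 19.7% and 22.6% passed, so that both counts of 5 and the 2 were near or below the background. Fitting only the groups compared gave 6 for STZ+AOS-FMT (12.4%) and 2 for STZ+control-FMT (15.1%) against AOS. A pseudocount of 5 gave 1 for STZ+AOS against control (10%). For STZ+AOS-FMT against STZ+AOS, 3 became 1 with quantile normalization (10.8%) and 1 with median-of-ratios rescaling (14.7%). The interaction for Clock turned from 0.37 to -0.075 with quantile normalization. With 1 library left out, counts ranged over 0 to 1 for STZ+AOS against STZ (26.5% of all genes at 1). They ranged over 0 to 1 for the interaction as well (24.1% and 6.31% at 1). For STZ+AOS against control the range was 0 to 4 (43.3% at 4), and for STZ+AOS-FMT against control 0 to 3 (0.191% at 3). It was 1 to 4 for STZ+AOS against AOS (40.4% at 4) and 0 to 3 for STZ+AOS-FMT against STZ+AOS (17% at 3). Both counts of 4 were near the background.

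Whether the replicate numbers pair the samples was not settled. Of 45 pairs of samples with the same number, 15 had deviations correlated above 0.1 (range -0.258 to 0.667). Samples with different numbers were not compared, so these values have no reference. With the replicate block, 4.32% of all genes passed for any difference, against 0.647% before. The block also gave 2 for STZ+AOS against control (12.9% of all genes) and 2 for STZ+control-FMT against STZ+AOS (8.79%), each at 0 before, and left the other counts within 1.5 times.

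Chosen after seeing the data, leaving out control 3 and STZ 1 together gave 3 for STZ against control (8.82% of all genes), 9 for any difference (42.6%), and 4 for STZ+AOS (48.5%), 6 for STZ+AOS-FMT (3.27%) and 3 for STZ+control-FMT (2.31%) against control. It gave 6 for STZ+AOS (56.5%) and 4 for STZ+AOS-FMT (2.93%) against AOS, and 5 for STZ+AOS-FMT (33.9%) and 2 for STZ+control-FMT (27.1%) against STZ+AOS. The counts of 4 and 6 for STZ+AOS and of 2 for STZ+control-FMT were near or below the background. The libraries with Cyp11b1 above 100 FPKM were also left out, a choice made after seeing the data. This gave 1 for STZ+AOS-FMT against STZ (0.153%) and 5 for STZ+AOS-FMT against control (1.21%). It leaves STZ+AOS with 1 library, assumed to vary like the other groups, so no counts are given for tests that include that group. The cause of these changes was not tested. With 3 libraries a group and an unknown depth, small differences of the low genes (Npas2, Per3 and Cry1, down to 0.50 FPKM) are the least certain.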
